A study of Arabidopsis thaliana with 8 samples.

Results

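The aquaporins of Arabidopsis thaliana were compared between wild type and the pan mutant in root cells sorted by a WOX5::GFP reporter. The members were chosen by gene identifier: 35 of the 33201 genes and loci in the authors' deposited table, made up of 13 plasma membrane intrinsic proteins (PIPs), 10 tonoplast intrinsic proteins (TIPs), 9 NOD26-like intrinsic proteins (NIPs) and 3 small basic intrinsic proteins (SIPs). The family was picked with earlier results of this same comparison known, so every value and q-value below is given as a description of the members and supports no statement beyond itself. Both groups were of the Col-0 accession and carried the WOX5::GFP marker, which labels the quiescent center (QC), a small group of rarely dividing cells that keeps the neighboring stem cells undifferentiated. Each genotype had 4 libraries, labelled as biological replicates. The pan mutant lacks normal function of the bZIP transcription factor PERIANTHIA (PAN). The mutant allele is not named in the sources used here. Roots of seedlings grown for 5 days were protoplasted, and cDNA from the sorted cells was amplified before sequencing. The authors' deposited table gives 1 pooled value per genotype and gene in FPKM (fragments scaled to transcript length and to the number of mapped fragments), so levels can be compared between genes, no library can be shown singly, and only the authors' q-value reflects the spread between libraries.

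Aquaporins are membrane channels of the major intrinsic protein family that let water, and in some members small neutral solutes, pass along their gradient. Each protein folds into a pore with a pair of short loops that meet in its middle, classically at asparagine-proline-alanine (NPA) motifs, and the proteins assemble as tetramers. PIPs sit in the plasma membrane and carry much of the water that crosses root cells, TIPs sit in the membrane of the vacuole, NIPs carry solutes such as boric acid, arsenite or lactic acid, and SIPs are found in the endoplasmic reticulum. Root cells that leave the meristem enlarge as their vacuole takes up water, and many PIP and TIP genes are known to be strongly expressed in elongating and mature root tissue.

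Summed over its members, the family reached 4904 FPKM in wild type and 2.56 times as much, 12541 FPKM, in pan. As a share of all FPKM in the authors' deposited table, the family made up 0.612% in wild type and 1.37% in pan. The total for pan lacks 9 rows that carry too many fragments to be estimated and are listed at 0 there. Of the 35 members, 29 were tested by the authors. Of these 29, 16 were called higher in pan and 1 was called lower at a q-value under 0.05 in the authors' deposited table. Over all 19789 tested genes, 8.01% were called higher and 9.83% lower. The median log2 change over the 35 members was 1.52, with members at 0 in wild type ranked highest, against -0.17 over tested genes with a finite change. The median over the 24023 genes above 0 in both genotypes was -0.21, so a scaling to that median would raise each log2 change below by 0.21.

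Changes in the table moved with the level of a gene, so the abundant aquaporins are set beside genes of like mean level. Of 1716 tested genes averaging 100 FPKM or more over both genotypes, 28.1% were called higher and 7.34% lower, with a median log2 change of 0.43. The 17 aquaporins of that class had a median log2 change of 1.54, and 13 of them were called higher in the authors' deposited table. That mean includes the pan value, so a rise in pan can itself move a gene into a higher class. Of the 13, PIP1;5, TIP1;1, TIP2;3 and SIP1;1 lay under 100 FPKM in wild type, at 89.9, 76.5, 28.9 and 47.8 FPKM. The comparison is therefore not independent of the change. Between 20 and 100 FPKM 12.7% of tested genes were called higher, as were 2 of 4 aquaporins. No member averaged 5 to 20 FPKM. The other 14 averaged under 5 FPKM, and 8 of these were tested. Of those 8, 1 TIP was called higher and 1 lower, both named below. Most members were thus either abundant or close to absent in these cells.

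**Figure D1:**
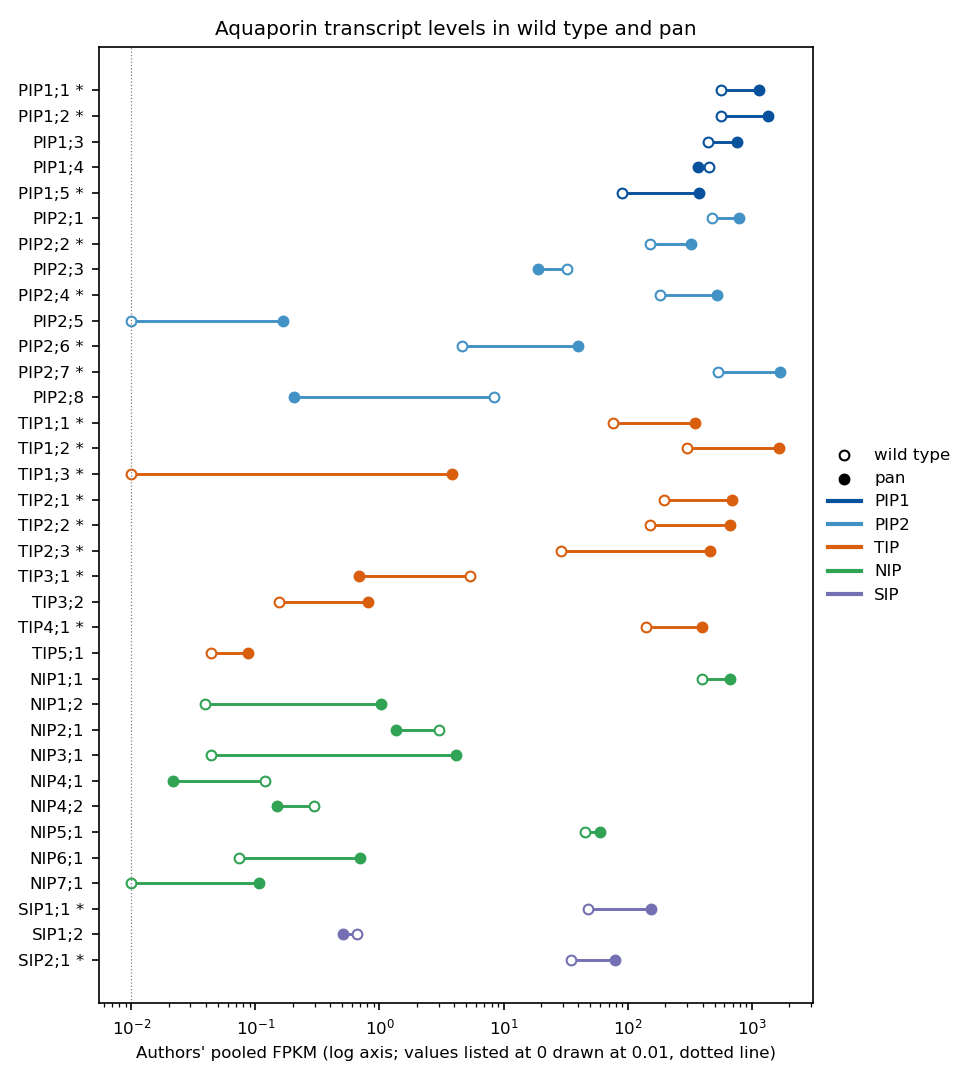
Pooled FPKM of each of the 35 aquaporins in wild type (open circles) and pan (filled circles) on a log axis, coloured by subfamily, with values listed at 0 drawn at 0.01 and an asterisk on members called at q under 0.05. The 6 abundant TIPs moved from 28.9 to 301 FPKM in wild type to 351 to 1656 FPKM in pan, while most NIPs lay under 5 FPKM in both.

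The PIP1 group was abundant in both genotypes. Its 5 members summed to 2103 FPKM in wild type against 3973 in pan, and all 5 were tested, with 3 called higher. Each of the 5 averaged 100 FPKM or more, a class in which 28.1% of tested genes were called higher. PIP1;2 (AT2G45960), a channel known to add to the water conductivity of roots, had the highest wild type level of the whole family and went from 562 to 1336 FPKM, which is 2.38-fold (q = 0.00202 in the authors' deposited table). PIP1;1 (AT3G61430) went from 561 to 1136 FPKM, 2.03-fold (q = 0.0176 in the authors' deposited table). These close relatives made up 11.5% and 11.4% of wild type aquaporin FPKM.

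PIP1;5 (AT4G23400) was the least abundant PIP1 in wild type and had the largest change of the group. Its level went from 89.9 to 378 FPKM, 4.20-fold (q = 0.00116 in the authors' deposited table). That q-value is the smallest the table holds, shared by 853 genes and by 9 aquaporins, so the order of genes at it is not resolved. PIP1;3 (AT1G01620) had 440 FPKM in wild type against 756 in pan and was not called (log2 change 0.78, q = 0.0606 in the authors' deposited table). PIP1;4 (AT4G00430) was the only PIP1 with a lower level in pan, at 450 and 367 FPKM, and was not called (q = 0.547 in the authors' deposited table). In wild type 4 of the PIP1 genes lay close together between 440 and 562 FPKM, and in pan the group spread from 367 to 1336 FPKM.

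Among the 8 PIP2 genes, which encode channels that carry water well on their own and help PIP1 proteins reach the plasma membrane, 7 were tested and 4 were called higher. The share called higher was 8.01% over all tested genes and 28.1% among those averaging 100 FPKM or more. PIP2;7 (AT4G35100), chromosome 4, 16708552 to 16710289 (TAIR10), went from 528 to 1686 FPKM, 3.19-fold (q = 0.00116 in the authors' deposited table). Its rank in the family was 3 in wild type and 1 in pan, where it ranked 24 in the whole table. PIP2;4 (AT5G60660) went from 182 to 526 FPKM, 2.90-fold (q = 0.00116 in the authors' deposited table).

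PIP2;6 (AT2G39010) was scarce in wild type, at 4.63 FPKM, and reached 39.9 FPKM in pan, 8.61-fold (q = 0.0147 in the authors' deposited table). PIP2;1 (AT3G53420), one of the main PIP2 channels of the root, stood at 473 and 783 FPKM and was not called (log2 change 0.72, q = 0.118 in the authors' deposited table). PIP2;8 (AT2G16850) had the lowest log2 change of the family, from 8.31 to 0.206 FPKM (log2 -5.33), and was not called (q = 0.0555 in the authors' deposited table). The abundant PIP2 genes were thus higher in pan while the scarce ones differed in both directions. PIP2;5 (AT3G54820) was listed at 0 in wild type, had 0.168 FPKM in pan and was not tested.

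PIP2;2 (AT2G37170) and PIP2;3 (AT2G37180) are the closest pair of the family and lie next to each other on chromosome 2, transcribed away from each other with 2612 bases and no annotated gene between them (RefSeq annotation, TAIR10.1). PIP2;2 went from 149.9 to 323 FPKM, 2.15-fold (q = 0.0371 in the authors' deposited table). PIP2;3, first described as a desiccation-responsive gene, had 32.5 FPKM in wild type against 18.9 in pan and was not called (log2 change -0.78, q = 0.311 in the authors' deposited table). Levels thus differed in opposite directions in a pair whose coding sequences were 94.8% identical over 858 aligned bases. They share an unbroken identical run of 242 bases, within which fragments cannot be assigned to either gene, so the split between them is uncertain. Their sum went from 182 to 342 FPKM, 1.87-fold. The stretch of 60 coding bases in which they differ most is shown because, among coding bases, only such differences tell fragments apart. The untranslated parts of their transcripts were not compared. Capitals mark the 10 bases that differ, out of 45 differences in all. The stretch starts at coding base 543 of the first and 414 of the second, in the longest coding sequence that RefSeq gives for each.
PIP2;2: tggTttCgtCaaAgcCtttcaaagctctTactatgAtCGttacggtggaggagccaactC
PIP2;3: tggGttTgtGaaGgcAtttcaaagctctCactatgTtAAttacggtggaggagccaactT

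The TIPs had the largest fold of the 4 subfamilies in summed FPKM. Their 10 members summed to 897 FPKM in wild type against 4224 in pan, 4.71-fold, and supplied 43.6% of the family's added FPKM, against 50.7% from the 13 PIPs, whose sum was 2.11 times as high in pan. Of 9 tested members 7 were called higher and 1 lower. As a share of aquaporin FPKM the TIPs went from 18.3% in wild type to 33.7% in pan, while the 13 PIPs went from 71.0% to 58.6%. The 6 TIPs between 28.9 and 301 FPKM in wild type were each called higher and stood at 351 to 1656 FPKM in pan. All 6 averaged 100 FPKM or more, a class in which 28.1% of tested genes were called higher.

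TIP1;2 (AT3G26520), chromosome 3, 9722443 to 9723815 (TAIR10), went from 301 to 1656 FPKM, 5.50-fold (q = 0.00116 in the authors' deposited table). Its rank in the family was 8 in wild type and 2 in pan. TIP1;1 (AT2G36830), the gamma-TIP long used to mark the large vacuole of vegetative cells, went from 76.5 to 351 FPKM, 4.58-fold (q = 0.00116 in the authors' deposited table). Their coding sequences were 81.7% identical, with no identical run over 29 bases.

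TIP2;3 (AT5G47450), chromosome 5, 19248249 to 19249504 (TAIR10), had the largest fold of any called aquaporin that was above 0 in both genotypes. It went from 28.9 to 460 FPKM, 15.9-fold (log2 change 3.99, q = 0.00116 in the authors' deposited table). TIP2;2 (AT4G17340), its closest relative with 83.2% coding identity, went from 150.3 to 666 FPKM, 4.43-fold (q = 0.00116 in the authors' deposited table). TIP2 proteins are known to pass ammonia as well as water. TIP2;1 (AT3G16240), the delta-TIP, went from 196 to 688 FPKM, 3.52-fold (q = 0.00116 in the authors' deposited table). Its locus in the table is shared with AT3G16250 on the other strand, which stood at 0.155 and 0.518 FPKM. TIP4;1 (AT2G25810), known as a root TIP, went from 139 to 398 FPKM, 2.86-fold (q = 0.00406 in the authors' deposited table). The gene with the largest fold was thus the least abundant of these 6 TIPs in wild type, and ranked 11 in the family in pan.

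The other 4 TIPs are known from seeds and pollen and were scarce here. TIP3;1 (AT1G73190), a channel of the protein storage vacuoles of seeds, had 5.33 FPKM in wild type against 0.680 in pan and was the only aquaporin called lower (log2 change -2.97, q = 0.0459 in the authors' deposited table). TIP3;2 (AT1G17810), its seed relative, stood at 0.155 and 0.811 FPKM and was not called (q = 0.676 in the authors' deposited table). TIP1;3 (AT4G01470), known from pollen, was listed at 0 in wild type, had 3.82 FPKM in pan and was called higher (q = 0.00116 in the authors' deposited table). No fold is given against a value listed at 0. TIP5;1 (AT3G47440), also known from pollen, stood at 0.0440 and 0.0876 FPKM and was not tested.

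**Figure D2:**
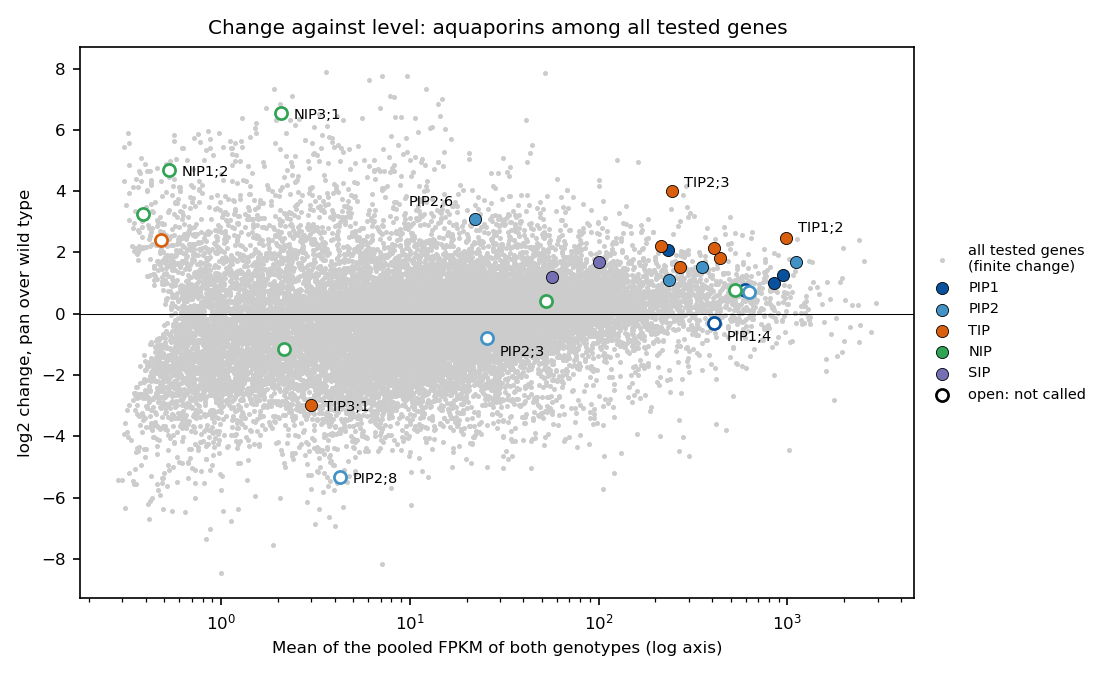
The log2 change of tested genes (vertical axis) against the mean of both genotypes' pooled FPKM (horizontal log axis), with tested aquaporins coloured by subfamily and filled where called. Abundant TIPs lie between log2 changes of 1.52 and 3.99, and members under 5 FPKM scatter from -5.33 to 6.56.

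No NIP was called, over 6 tested members, by the authors' test (Cuffdiff layout) at q under 0.05. At an unadjusted p under 0.05 there was 1, the first named here. With 8.01% of all tested genes called higher and 9.83% lower, nothing is read from the lack of calls among 6. NIP1;1 (AT4G19030), known as a route for arsenite into roots, was by far the most abundant NIP, with 393 FPKM in wild type against 666 in pan (log2 change 0.76, q = 0.0685 in the authors' deposited table). NIP5;1 (AT4G10380), the boric acid channel of the root surface, stood at 45.4 and 60.3 FPKM (log2 change 0.41, q = 0.480 in the authors' deposited table). These NIPs held nearly all NIP FPKM, and the 9 members went from a sum of 442 to 733 FPKM.

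The other 7 NIPs stayed under 5 FPKM in both genotypes. NIP2;1 (AT2G34390), a lactic acid channel known to be induced by low oxygen, had 2.99 FPKM in wild type against 1.35 in pan (q = 0.700 in the authors' deposited table). NIP3;1 (AT1G31885) had the highest finite log2 change of all members, 6.56, from 0.0439 to 4.14 FPKM, and was not called (q = 0.408 in the authors' deposited table). Its wild type level was 1.75 times the floor, taken as the 0.1 percentile of FPKM times the longest transcript's length in kilobases over genes above 0. That fold therefore rests on about the smallest level that could be recorded. NIP1;2 (AT4G18910) stood at 0.0392 and 1.02 FPKM and was not called (q = 0.396 in the authors' deposited table), and its wild type level was 1.54 times the floor. The floor was 0.0352 in wild type and 0.00349 in pan, so a scarce transcript could be recorded at a lower level in pan.

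Of the remaining NIPs, NIP6;1 (AT1G80760), a boric acid channel known from stem nodes, stood at 0.0738 and 0.697 FPKM and was not called (q = 0.609 in the authors' deposited table). The 3 others are known from pollen and anthers and were not tested. NIP4;1 (AT5G37810) had 0.119 FPKM in wild type against 0.0216 in pan. NIP4;2 (AT5G37820), next to it on chromosome 5 and 88.0% identical in coding sequence, stood at 0.294 and 0.150 FPKM. NIP7;1 (AT3G06100) was listed at 0 in wild type and had 0.107 FPKM in pan.

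Both tested SIPs were called higher, against 8.01% of all tested genes, and nothing is read from a count of 2. SIP1;1 (AT3G04090) went from 47.8 to 154 FPKM, 3.21-fold (q = 0.00202 in the authors' deposited table). SIP2;1 (AT3G56950) went from 34.6 to 78.8 FPKM, 2.27-fold (q = 0.0365 in the authors' deposited table). The second of these shares its locus in the table with AT3G56940 on the other strand, which stood at 1.62 and 3.50 FPKM, and whether strand was used in counting is not given in the sources used here. SIP1;2 (AT5G18290) stood at 0.657 and 0.507 FPKM and was not tested. In all, 7 members share a table locus with a gene on the other strand: 3 TIPs, 2 NIPs and 2 SIPs. The delta-TIP and this SIP are the 2 of them that were called, and the partner of each lay far below it.

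**Figure D3:**
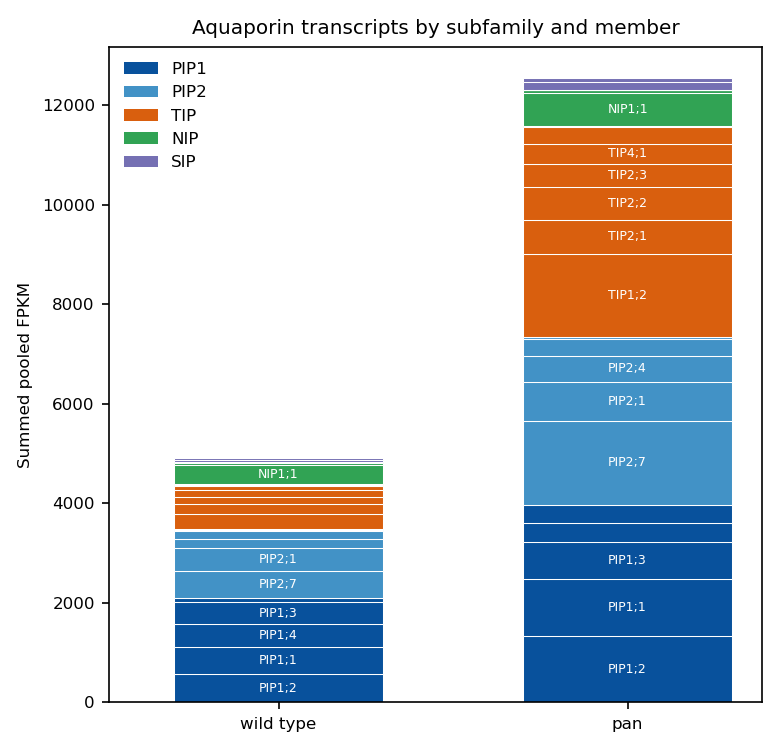
Summed pooled FPKM of the aquaporins in wild type and pan, stacked by subfamily with 1 segment per member and names on members above 380 FPKM. The total goes from 4904 to 12541 FPKM, and the TIP block from 897 to 4224 FPKM.

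Calls near the threshold fell on both sides of it for members of quite different levels. The called members nearest to it had q = 0.0371 and 0.0459, and the nearest that were not called had q = 0.0555, 0.0606 and 0.0685, each given above with its gene from the authors' deposited table. Of the 29 tested members, 19 were higher and 2 lower at an unadjusted p under 0.05. Over all 35 members, 27 had a higher value in pan and 8 a lower one, of which 1 was a PIP1, 2 were PIP2 genes, 1 a TIP, 3 NIPs and 1 a SIP. All 8 but the PIP1 and 1 of the PIP2 genes averaged under 5 FPKM.

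Genes that work beside aquaporins were described in the same way. Pumps of the vacuole energise the tonoplast in which TIPs sit. All 13 genes listed as vacuolar proton pumps had a higher value in pan, and 6 of 13 tested were called higher, with a median log2 change of 0.84. Most of these genes averaged 100 FPKM or more, a class in which 28.1% of tested genes were called higher, with a median log2 change of 0.43. The largest called changes were those of VHA-D, from 64.4 FPKM to 167 FPKM (log2 1.38), VHA-A, from 358 FPKM to 854 FPKM (log2 1.26), and VHA-H, from 129 FPKM to 301 FPKM (log2 1.23, all by the authors' deposited table). The TIP median was 2.17 over all 10 members, tested or not, with TIP1;3, listed at 0 in wild type, ranked highest. Of 11 tested genes for the trafficking and regulation of PIPs, 2 were called higher and 1 lower, with a median log2 change of 0.65. QSK1, a receptor kinase of the plasma membrane, rose from 49.8 to 142 FPKM (q = 0.00116), and VAMP711, a SNARE of the vacuole, from 83.9 to 182 FPKM (q = 0.0129) in the authors' deposited table. OST1, the abscisic acid kinase known to phosphorylate a PIP2 channel in guard cells, fell from 16.3 to 0.857 FPKM (q = 0.00116 in the authors' deposited table). Over all tested genes 8.01% were called higher and 9.83% lower, and nothing is read from counts as small as 2 and 1 of 11.

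Solute partners of the NIPs had calls in both directions. Of 5 tested boron exporters, BOR2 rose from 78.1 to 182 FPKM (q = 0.00273 in the authors' deposited table), whereas BOR1, which loads boron into the xylem, fell from 16.1 to 5.28 FPKM (q = 0.0207) and BOR3 from 11.02 to 2.03 FPKM (q = 0.0114). Beside these calls NIP5;1 was not called. The shares over all tested genes were 8.01% higher and 9.83% lower, and nothing is read from counts of 1 and 2 of 5. Of 11 tested genes of low oxygen response and fermentation, 1 was called, HB1, a non-symbiotic hemoglobin, which fell from 61.8 to 20.9 FPKM (q = 0.0334 in the authors' deposited table). This 1 of 11 is close to the 9.83% of all tested genes called lower, and the list had a median log2 change of -1.05.

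Markers of root cell types differed between the genotypes in both directions. The shares of all tested genes called were 8.01% higher and 9.83% lower. Among those averaging 100 FPKM or more they were 28.1% and 7.34%. WOX5, the gene of the sort marker, fell 24.8-fold and PAN itself 75.3-fold by the authors' deposited table, and all 7 markers of the QC and stem cell niche were called lower, with sums of 613 FPKM in wild type against 44.4 in pan. All 5 root cap markers were called lower as well, with sums of 576 and 208 FPKM. All 8 epidermis and root hair markers had a higher value in pan and 4 were called higher, with a wild type range of 7.12 to 204 FPKM, a pan range of 27.9 to 535 FPKM, and sums of 476 and 1502 FPKM. ADF8, an actin-binding protein of root hairs, rose 7.55-fold, from 32.6 FPKM to 246 FPKM, by the authors' deposited table. ADF8 had the largest fold of these 8 markers, whose median log2 change was 1.68.

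Of 8 cortex and endodermis markers 6 had a higher value in pan, and 1 was called higher, against 8.01% of all tested genes. It was CASP1, which builds the Casparian strip, at 2.99-fold by the authors' deposited table. Nothing is read from a count of 1 of 8. The sums over these 8 markers were 144 and 355 FPKM. Of 6 tested stele markers 3 were called lower and 1 higher, against 9.83% and 8.01% of all tested genes. Their median log2 change was -2.75, and 5 of all 7 had a lower value in pan. The sums over the 7 were 69.6 and 75.7 FPKM, of which the 1 called higher held 28.1 and 70.8 FPKM. No marker of these lists was at 0 in either genotype. In sorted bulk cells a larger number of cells of a type and more RNA per cell cannot be told apart, and the part of these shifts in the aquaporin values was not tested.

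**Figure D4:**
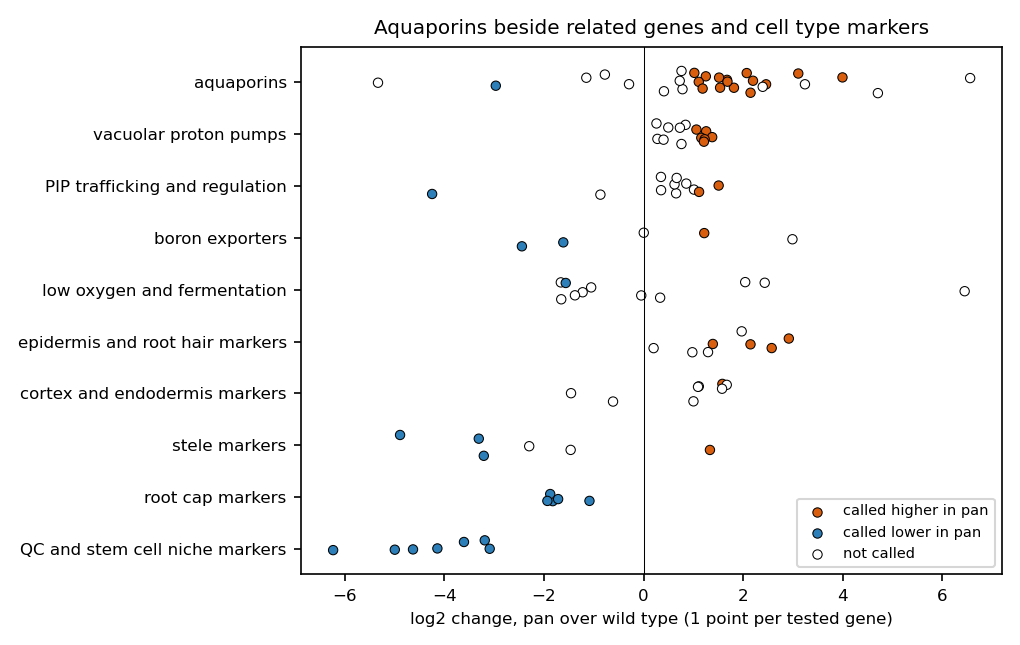
The log2 change, where finite, of tested genes in the aquaporin family, 4 lists of genes that work beside aquaporins and 5 lists of cell type markers, with colour for the authors' calls. Genes listed as vacuolar proton pumps all lie above 0, as do epidermis and root hair markers, and all QC markers lie below 0.

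Features of the coding sequences that played no part in the choice of members differed between the subfamilies. A script searched each longest RefSeq coding sequence, in frame, for the codons of the NPA motif, AAC or AAT followed by CCN and GCN. All 13 PIPs and all 10 TIPs held 2 such triplets, 121 codons apart in each PIP and 113 to 114 apart in the TIPs. Among the 9 NIPs 4 held 2, 4 held 1 and NIP5;1 held none, and each of the 3 SIPs held 1. As every PIP and TIP held 2 triplets, called or not, the number of triplets says nothing about the calls. Lengths ran from 240 codons in a SIP to 328 in a PIP2, and every PIP had 4 coding exons.

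PAN is one of the TGA-type bZIP factors, whose known core site is TGACG, and the sequence before each gene's start was searched for it on both strands. In windows from 250 bases before to 50 bases after the annotated start (RefSeq, TAIR10.1), 4 of 35 aquaporins (11.4%) held TGACG, against 23.1% of the windows of 27443 protein-coding genes. The 4 were PIP2;2, PIP2;5, TIP3;2 and NIP1;1, of which PIP2;2 alone was called. The longer TGACGT, which contains the core, was in none of the 35 windows and in 9.19% of all windows. A match is a stretch of letters and not a site shown to be bound, and no match says only that these letters are not in the window.

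The 250 bases before the start are shown, 5′ to 3′ on the strand of the gene, for the neighboring pair closest in coding sequence, PIP2;2 and PIP2;3, and for the TIP with the largest called fold, TIP2;3, beside its closest relative, TIP2;2. Capitals mark TGACG or its reverse complement, found here only 40 bases before the start of PIP2;2. Positions in TAIR10.1 are chr2:15615023-15615272 on the minus strand for PIP2;2, chr2:15617385-15617634 on the plus strand for PIP2;3, chr4:9698690-9698939 on the plus strand for TIP2;2 and chr5:19249623-19249872 on the minus strand for TIP2;3. None of these windows overlaps another annotated gene.
PIP2;2: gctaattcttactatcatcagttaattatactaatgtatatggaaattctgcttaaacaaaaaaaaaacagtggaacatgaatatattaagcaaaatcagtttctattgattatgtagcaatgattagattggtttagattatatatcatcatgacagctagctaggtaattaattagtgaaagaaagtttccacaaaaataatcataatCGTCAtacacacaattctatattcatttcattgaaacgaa
PIP2;3: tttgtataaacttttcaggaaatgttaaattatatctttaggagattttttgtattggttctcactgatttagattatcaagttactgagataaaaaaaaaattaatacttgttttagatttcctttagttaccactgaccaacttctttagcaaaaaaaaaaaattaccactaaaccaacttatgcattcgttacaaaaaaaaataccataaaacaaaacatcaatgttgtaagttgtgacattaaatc
TIP2;2: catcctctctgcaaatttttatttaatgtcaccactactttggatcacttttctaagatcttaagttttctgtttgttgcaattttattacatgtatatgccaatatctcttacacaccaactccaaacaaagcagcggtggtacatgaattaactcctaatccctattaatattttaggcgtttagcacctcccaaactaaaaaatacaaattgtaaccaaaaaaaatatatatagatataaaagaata
TIP2;3: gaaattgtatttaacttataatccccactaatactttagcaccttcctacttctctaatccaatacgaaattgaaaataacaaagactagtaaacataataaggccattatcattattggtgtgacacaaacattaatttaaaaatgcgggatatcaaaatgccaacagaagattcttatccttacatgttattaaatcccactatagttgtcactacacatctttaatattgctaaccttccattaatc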

How the data were processed

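RNA sequencing of WOX5::GFP-sorted root cells was used, with 4 wild type and 4 pan libraries. The submitters' processing notes name Cuffdiff, Cufflinks 2.1.1, TopHat2 2.0.13 and the TAIR10 build. No role or setting of these tools is given in the sources used here. The table deposited by the authors, in the layout of a Cuffdiff gene result, holds FPKM as 1 pooled value per genotype, the log2 of pan over wild type without a pseudocount, a test score that was not used, and a p-value with its adjusted q-value per tested gene. It holds no value per library, so depth, standard deviations and replicate checks are unknown, and the q-values were taken as given, with calls at q under 0.05 across all genes.

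The members and lists were chosen with earlier results of these data known. Members were matched by identifier, and all 35 had a row. Of 80 entries in 9 other lists, RMA1 had no row of its own. Every member may be named, with up to 3 called genes of the largest absolute log2 change from each other list. Medians rank a member listed at 0 in wild type highest. Sequences, transcript lengths and strands came from RefSeq (TAIR10.1), whose gene of the same identifier overlapped the table's locus in 32217 of 32218 matched rows. Printed table coordinates are TAIR10, 1-based. Coding sequences were aligned globally with Biopython 1.88, and identity leaves out gaps. Alignment and motif search were tested on made sequences. Alternatives were pseudocounts of 0.1, 1 and 5 FPKM, a mean of at least 5 FPKM, a q threshold of 0.01, scaling to the median gene, centring within expression classes (edges at 1, 5, 20 and 100 FPKM) and leaving out the most abundant member. Python 3.11.15 with pandas 2.3.3 was used.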

Additional observations from a re-analysis of the deposited data

How the results depend on the processing

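No paired analysis was possible because the deposited values are pooled per genotype and carry no replicate number, and for the same reason no replicate could be left out. With no replicate spread, a value was taken as moved when it changed by over 1.5 times. The subfamily medians and summed ratios of PIP1, PIP2, TIP, NIP and SIP kept their sign under every alternative run, and of 45 such values and counts 41 stayed within that limit. A pseudocount keeps the sign of each member and scaling raised every log2 change, so neither could turn these positive values. The level filter, class centring and leaving out the most abundant member could. The number of members called higher was 16, 12 at a q threshold of 0.01 and 15 among members averaging 5 FPKM or more. The 1 member called lower, TIP3;1, was lost under both, leaving 0 by the authors' test, with 2 lower at an unadjusted p under 0.05. The NIP median of 0.76 was 0.17 with a pseudocount of 5. The longer motif TGACGT left 0 of 4 promoter matches. Among single members, 76 of 96 values stayed within the limit, 20 moved and 0 turned their sign. For them this says nothing, as a pseudocount cannot turn a sign and scaling could turn only a slight negative change. Those that moved are of members at low levels in at least 1 genotype, under a pseudocount of 1 or 5. Depth per library is unknown, so the lowest values, near the floor, carry little weight.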
